A study of Mus musculus with 3 samples.

Results

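The nuclei described here are a population of valve interstitial nuclei from the mouse aortic root that was picked out by the RNA of 5 genes: Rmst, Pcdh15, Adamts19, Rnf43 and Kirrel3. A nucleus was kept with at least 1000 UMIs (unique molecular identifiers, 1 per captured RNA molecule) and at most 5% of them from the 13 mitochondrial genes. It was a member when the 5 genes summed to at least 4 UMIs and at least 0.2% of its UMIs, from at least 2 of the genes. Members also had under 0.5% of UMIs from the cardiac muscle genes Ryr2, Ttn, Myh6 and Tnnt2, at most 1 UMI of the endothelial genes Pecam1, Cdh5 and Ptprb, and at most 2 UMIs of the smooth muscle genes Myh11 and Itga8. The rule was met by 474 of 14073 kept nuclei, 185 of 7071 in pool 1, 98 of 3253 in pool 2 and 191 of 3749 in pool 3.

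Nuclei came from flash frozen aortic valve structures of pups at postnatal day 1, in 3 pools of 22 to 24 aortic roots each. All pools were of 1 B6.Cg strain carrying Scx tm1.1(EGFP)Skom, an allele that puts an EGFP reporter into the gene of the tendon transcription factor scleraxis. The zygosity is not stated, no pool lacks the allele, and there is no treated or untreated group, so that all comparisons are between nuclei of the same pool. RNA was read with the gene expression part of the 10x Genomics Multiome assay, and whether the pools share litters is not stated, so that spread between pools may be partly technical. The 3 matrices held 21140 deposited nuclei with median totals of 3084 to 3634.5 UMIs, and members held median totals of 4091, 4165 and 2885 UMIs against 4506.5, 4923 and 3471.5 in the other kept nuclei. Between 44 and 99 cell barcodes occurred in both pools of a pair, and none of these was a member in both.

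Valve interstitial cells are the mesenchymal cells of the valve leaflets, where they make and remodel the layered matrix of collagen, proteoglycan and elastin. They descend largely from endocardium that becomes mesenchyme in the cushions of the embryonic heart. In canonical Wnt signalling a Wnt ligand binds Frizzled and LRP5 or LRP6, beta-catenin then accumulates and works with the TCF/LEF factors, and many genes switched on this way are themselves inhibitors of the pathway. RNF43 is such an inhibitor, a ubiquitin ligase that removes Frizzled from the cell surface, while R-spondins and their LGR receptors remove RNF43 in turn. ADAMTS19 is a secreted protease whose loss causes valve disease in people and mice, Rmst is a long noncoding RNA, and Pcdh15 and Kirrel3 encode adhesion proteins.

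The canonical targets Lef1, Axin2 and Tnfrsf19 stood out together in these nuclei, and the sequence around their starts is shown as the DNA that TCF/LEF factors could meet there. The RefSeq promoter table for GRCm38.p6, which is not the build of the count files, gives 250 bases before and 50 after each start, and 8 of the 12 genes in the list of Wnt feedback genes and targets had an entry. The letters CTTTGAT, the core of the TCF/LEF motif, were searched on both strands (ATCAAAG on the other) and are in capitals where found. Axin2 at chr11:108920099-108920398 on the plus strand, Lef1 (1 of its 4 starts) at chr3:131110047-131110346 on the plus strand and Tnfrsf19 (1 of its 2 starts) at chr14:61037938-61038237 on the minus strand read:
Axin2: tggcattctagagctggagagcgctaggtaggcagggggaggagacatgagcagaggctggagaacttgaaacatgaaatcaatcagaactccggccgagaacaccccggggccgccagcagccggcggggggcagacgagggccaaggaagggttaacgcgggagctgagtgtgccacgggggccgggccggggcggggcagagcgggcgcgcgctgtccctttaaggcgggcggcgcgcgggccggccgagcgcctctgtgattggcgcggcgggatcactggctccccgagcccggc
Lef1: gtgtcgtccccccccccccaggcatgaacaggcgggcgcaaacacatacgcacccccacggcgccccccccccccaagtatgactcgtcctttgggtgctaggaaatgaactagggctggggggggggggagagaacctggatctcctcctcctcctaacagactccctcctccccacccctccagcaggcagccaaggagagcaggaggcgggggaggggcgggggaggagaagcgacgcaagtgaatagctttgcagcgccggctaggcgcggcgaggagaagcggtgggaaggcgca
Tnfrsf19: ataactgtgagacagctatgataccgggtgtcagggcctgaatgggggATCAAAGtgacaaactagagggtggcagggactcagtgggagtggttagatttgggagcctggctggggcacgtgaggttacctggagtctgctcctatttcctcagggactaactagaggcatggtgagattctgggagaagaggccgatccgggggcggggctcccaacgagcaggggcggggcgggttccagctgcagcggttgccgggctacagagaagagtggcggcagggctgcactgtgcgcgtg
The letters occurred in 2 of the 14 windows of the list's genes and in 3.73% of all 32851 windows. In the Tnfrsf19 window shown, that of its second listed start, the match begins at position -202 from the start. The Axin2 and Lef1 windows shown are those of the first listed start and hold none, which says only that these letters are not in these windows. The other Tnfrsf19 start and the other Lef1 starts are not shown, so that the windows shown do not cover these genes.

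The rule genes themselves were read as follows, as a description of the choice. Adamts19 had a UMI in 95.7%, 95.9% and 90.1% of members of pools 1 to 3, Kirrel3 in 85.4%, 78.6% and 77.0%, and Pcdh15 in 67.0%, 72.4% and 72.8%. Rmst was read in 61.6%, 60.2% and 61.8% of members and Rnf43 in 44.3%, 34.7% and 37.2%. Adamts19 and Kirrel3 were thus the genes most members shared, while Rnf43 marked fewer. All 5 genes were present in 92 members, 4 in 143, 3 in 127 and 2 in 112. Of the members with Rnf43, 93.6% also had Adamts19, 81.8% Kirrel3 and 81.3% Rmst, while 52.2% of those with Rmst had Rnf43. The 5 genes made up a median of 0.785% of a member's UMIs, with a range from 0.203% to 5.42%. Near the limits, 4 members had exactly 4 UMIs and 85 had between 0.2% and 0.4%, while 123 nuclei that passed the exclusions had 3 UMIs and 296 had 4 or more but under 0.2%.

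The exclusions removed more nuclei than they left. The 5 genes met their limits in 1045 kept nuclei, of which 571 were left out, 414 of them over the endothelial limit, 214 over the smooth muscle limit and 75 over the cardiac limit. Ptprb alone put 291 nuclei over the endothelial limit. The 303 nuclei that only the endothelial limit removed had summed levels of Lef1 of 458 ± 62.2 CPM (UMIs scaled to a common total, ± SD, n = 3 pools), Apcdd1 of 291 ± 22.7 and Wnt16 of 197 ± 45.4, where members had 429 ± 21.8, 213 ± 25.7 and 199 ± 36.2. The pools of the 2 sets overlapped for Lef1 and Wnt16 but not for Apcdd1, which was at 277 to 317 CPM against 183 to 232. Grm7, at 265 to 354 CPM against 504 to 683 in members, and Igf1, at 910 to 1040 against 1435 to 1940, did not overlap either. These nuclei also had more endothelial RNA, with Nos3 at 44.9 ± 17.4 CPM against 2.36 ± 2.05 in members and Emcn at 98.8 ± 34.1 against 4.57 ± 2.71. More endothelial RNA follows in part from the limit that set them apart. Nuclei rich in endothelial RNA, a set that may share nuclei with them, were at 167 ± 37.1 CPM for Nos3 and 662 ± 100 for Emcn. What the 303 nuclei are was not tested.

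Members made up 2.62% of the kept nuclei of pool 1, with a Wilson 95% interval from 2.27 to 3.01. The share was 3.01% in the second pool (2.48 to 3.66) and 5.09% in the third (4.44 to 5.85), which gives a mean of 3.57% ± 1.33 (SD, n = 3 pools). Pool 3 lay above the other two by more than counting error, which is all these intervals cover. Pool 3 was also the pool in which the exclusions removed least, since 56.8% of the nuclei that met the 5-gene limits were members there, against 39.8% and 40.2%.

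The label was checked on 10 valve interstitial markers. All 10 were detected, and 6 of them (Tbx20, Sox9, Vcan, Hapln1, Prrx1 and Postn) exceeded the other kept nuclei by 2-fold or more in every pool. Their summed level was 13680 to 16205 CPM in members, 4580 to 6154 in the other kept nuclei and 11910 to 12766 in the Ctnna2-Abi3bp nuclei, a second valve interstitial set picked by Ctnna2, Abi3bp, Col11a1 and Col12a1. It was 10921 to 14820 CPM in 774 nuclei picked by the fibroblast genes Abca8a, Lepr, Ebf2, Dpt and Lama2, so that this sum did not separate members from fibroblast nuclei, while Hapln1 did, at 109 to 146 CPM in members and a mean of 3.78 CPM in those nuclei. Fibroblast markers summed to 1376 to 1824 CPM in members, 1011 to 1283 in other kept nuclei and 5306 to 6059 in the fibroblast nuclei, whose 5 picking genes are all on this list, so that their sum follows from the choice. Of the 8 genes Pdgfra and Dpt were higher than in other nuclei and Ebf2 lower. Endothelial markers summed to 125 to 234 CPM in members and cardiomyocyte markers to 331 to 619 CPM, but the exclusions limit 3 of the 8 endothelial and 4 of the 8 cardiomyocyte genes in members, so that these low sums are no check of the label. The 8 melanocyte markers summed to 44.2 to 44.9 CPM in members, with Tyr, Tyrp1 and Mlana at 0, and to 242 to 336 in other kept nuclei. Schwann cell markers summed to 27.2 to 66.6 CPM in members and 34.0 to 43.2 in other kept nuclei. That list thus did not separate the 2 sets, although Sox10 and Foxd3 were at 0 in members.

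Mesothelial markers came from few nuclei. The 8 markers summed to 9.45 CPM in members of the lowest pool and 870 CPM in the highest, and 9 members, 7 in pool 1 and 2 in pool 3, carried 1046 of their 1073 UMIs. None of the 9 had one of the highest doublet scores. The share was 3.53% without them, and counts of genes below are given without them where that matters.

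Against all other kept nuclei of the same pool, members had higher RNA of 7 of the 10 Wnt feedback genes and targets tested, and of single genes such as Grm7, Sntg1, Bmper, Vcan and Prg4. Of 11040 genes with at least 10 CPM in either set, 373 were at least 2-fold higher in every pool (3.38%) and 708 at least 2-fold lower (6.41%), on the scale of log2(CPM + 5). The members were picked by genes found in these same nuclei, so that these values are a description with no test, and the lower genes are led by those of the cell types that the exclusions remove, such as Rbm20, Tnni3k and Trdn of cardiac muscle and Emcn of endothelium. Nuclei that met both rules, 95 in all, were counted as members. Against the 351 Ctnna2-Abi3bp nuclei, which passed the same exclusions, 211 of 10769 genes were higher (1.96%) and 169 lower (1.57%). Of the genes higher in these 2 comparisons, which share the members, 131 were the same genes, or 35.1% of the first list and 62.1% of the second.

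Lef1, the TCF/LEF factor that is itself a Wnt target, was at 449.8, 406 and 431 CPM in members of pools 1 to 3, at 40.9, 44.99 and 41.7 in other nuclei and at 40.8, 38.0 and 64.7 in the Ctnna2-Abi3bp nuclei. Every pool of members lay above every pool of both sets, by 3.19 ± 0.14 and 3.07 ± 0.37 on the log2 scale (SD, n = 3 pools). Axin2, a scaffold of the complex that destroys beta-catenin, was at 70.3, 52.0 and 76.4 CPM in members, 10.8, 11.5 and 7.89 in other nuclei and 9.78, 14.6 and 4.98 in the Ctnna2-Abi3bp nuclei. Apcdd1, a membrane inhibitor of Wnt, was at 223, 232 and 183 CPM against 26.4, 31.1 and 26.9 and against 47.3, 23.4 and 64.7. Again no pool overlapped. Nkd1 and Nkd2, inhibitors that act on Dishevelled, were at 81.5 to 101 and 68.5 to 88.3 CPM in members and at 28.0 to 35.2 and 11.2 to 14.1 in other nuclei. Tnfrsf19, a receptor gene that responds to Wnt, was at 137, 137 and 124 CPM in members and at 8.77 to 11.4 in the Ctnna2-Abi3bp nuclei.

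Of the 10 genes of the list of Wnt feedback genes and targets that reached 10 CPM, leaving out Rnf43, 7 were higher than in other nuclei in every pool and 0 lower, with a median log2 difference of 1.83 where the median over all genes tested was 0.0052. Against the Ctnna2-Abi3bp nuclei 6 of 10 were higher and 0 lower, with a median of 1.72 beside -0.0086. The seventh gene of the first count, Nkd1, differed by 1.14 ± 0.21 in that comparison without reaching 2-fold in every pool. Notum, which removes a lipid from Wnt ligands, was low at 7.09 to 14.8 CPM in members, and 0 UMIs were read in the Ctnna2-Abi3bp nuclei. Notum and Tcf7 reached a mean of 10 CPM only in members in both comparisons, and Axin2 only in members in the second, so that these genes could enter the counts only on the higher side, and the counts and medians are a description. The list was chosen with the members' Rnf43 known, and its genes describe the members without showing signalling in them. Znrf3, the relative of Rnf43, differed less, at 217 to 272 CPM in members and 156 to 191 in other nuclei.

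**Figure D1:**
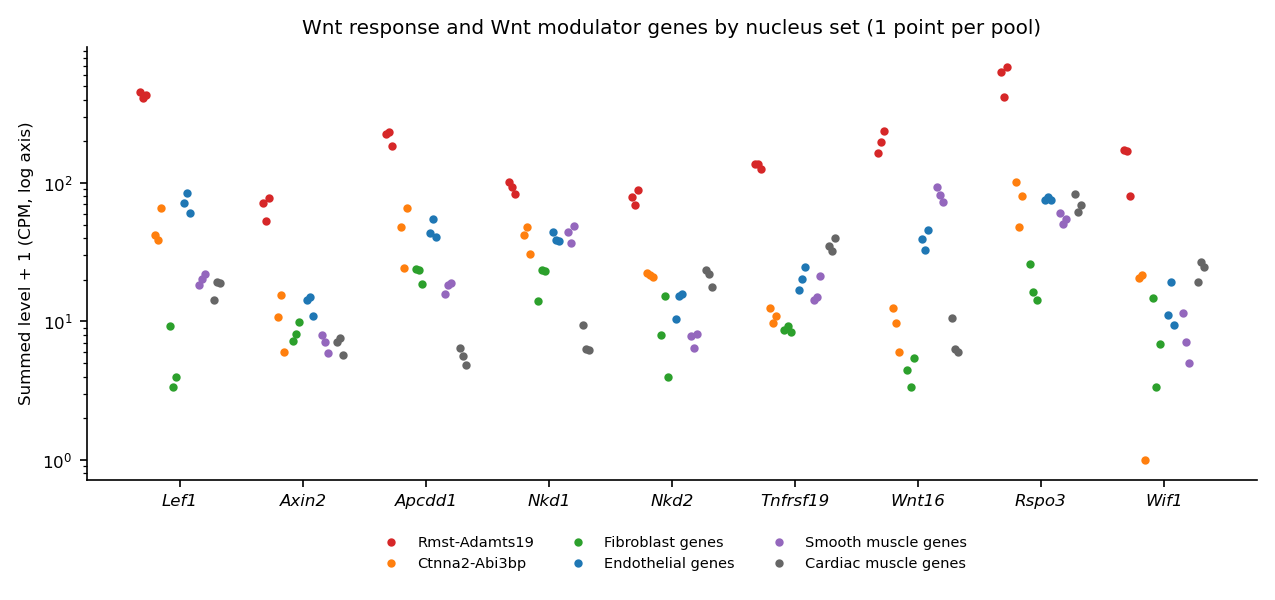
Summed level plus 1 (CPM, log axis) of 9 Wnt response and modulator genes in 6 sets of nuclei, with 1 point per pool and set. All 9 genes are among those called higher than in other nuclei, so that members (red) lie high by that choice. Lef1, for example, is at 406 to 449.8 CPM in members. Sfrp2 and Frzb, which were lower than in the Ctnna2-Abi3bp nuclei, and nuclei that fell in none of the 6 sets are not shown.

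Ligands and receptors of the pathway were more mixed. Wnt16 was at 164, 196 and 236 CPM in members, 42.7, 27.5 and 35.4 in other nuclei and 11.4, 8.77 and 4.98 in the Ctnna2-Abi3bp nuclei. Wnt5a, a ligand best known for noncanonical signalling, was at 122, 128 and 112 CPM against 31.3, 36.5 and 25.3 in other nuclei, and its difference from the Ctnna2-Abi3bp nuclei, 1.35 ± 0.78, did not reach 2-fold in every pool. Of 6 ligands and 13 receptors at 10 CPM, 2 and 2 were higher than in other nuclei, with medians of 0.90 and 0.19, where 3.38% of all genes were higher. Ror2, a receptor for WNT5A, was at 236 to 311 CPM against 78.5 to 92.9, and Lgr5 at 30.8 to 39.1 against 3.94 to 5.13. Lgr5 thus reached 10 CPM only in members and could be counted only as higher. Fzd4 and Lgr6 were lower, Lgr6 at 7.09 to 17.3 CPM against 86.0 to 163, where 6.41% of all genes were lower. The coreceptors Lrp5 and Lrp6 differed by 0.50 ± 0.11 and -0.05 ± 0.10.

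Among secreted modulators, the R-spondin gene Rspo3 was at 632, 418 and 689.6 CPM in members and at 66.6 to 72.6 in other nuclei and 46.8 to 101 in the Ctnna2-Abi3bp nuclei. Wif1, which binds Wnt ligands outside the cell, was at 171, 170 and 79.8 CPM against 11.9 to 17.2 and against 19.6, 20.5 and 0. Pool 3 was the lowest in members and had 0 UMIs in the compared set. Sfrp2 went the other way, at 74.0, 113 and 39.1 CPM in members and 693, 771 and 363 in the Ctnna2-Abi3bp nuclei. Frzb was also lower than in that set, at 1.70 to 9.86 CPM against 42.4 to 49.8. Dkk3 was higher than in other nuclei, at 335 to 454 CPM against 95.5 to 121, and differed from the Ctnna2-Abi3bp nuclei by -0.01 ± 0.26.

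Among growth factor genes, Bmper, a secreted regulator of BMP signalling, was at 1534, 1236 and 1603 CPM in members, 172, 147 and 171 in other nuclei and 608, 602 and 632 in the Ctnna2-Abi3bp nuclei. It was higher in every pool of both comparisons, by 3.11 ± 0.08 and 1.23 ± 0.17. Igf1 was at 1564, 1939.9 and 1435 CPM against 238, 283 and 228, and Bmp5 at 64.1, 73.3 and 109 against 11.1, 12.7 and 16.8, while Bmp4 was lower, at 11.8 to 27.1 against 71.8 to 84.0. No gene of 12 BMP and TGF-beta receptors and Smads was higher in either comparison, and Bmpr1b was lower than in other nuclei. These numbers are near the shares over all genes, 3.38% higher and 6.41% lower than in other nuclei and 1.96% higher than in the Ctnna2-Abi3bp nuclei. Among 19 growth factor receptor genes 4 were higher than in other nuclei (Pdgfra, Fgfr2, Fgfr4 and Erbb4) and 5 lower (Met, Ntrk3, Ednra, Ednrb and Kit), with a median of -0.33, where 3.38% of all genes were higher and 6.41% lower. Erbb4, the neuregulin receptor that acts in the endocardial cushions, was at 9161, 7308 and 11226 CPM against 4048, 3390 and 4976, and was also higher than in the Ctnna2-Abi3bp nuclei, by 1.46 ± 0.10.

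Matrix genes went in both directions. Vcan, the core protein of versican, was at 2742, 2620 and 2750 CPM in members, 632, 658 and 608 in other nuclei and 942, 1002 and 906 in the Ctnna2-Abi3bp nuclei. Every pool of members lay above every pool of both sets. Hapln1, which links versican to hyaluronan, was at 118, 109 and 146 CPM against 26.3, 26.9 and 21.5, and Has2, a hyaluronan synthase, at 49.3, 54.4 and 115 against 12.9 to 16.1. Prg4, which encodes the lubricant lubricin, was at 134, 96.9 and 112 CPM against 9.07, 8.45 and 8.20 in other nuclei. Of 16 proteoglycan and hyaluronan genes tested, 7 were higher and 4 lower than in other nuclei, with a median of 0.68. Over all genes, the shares in that comparison were 3.38% higher and 6.41% lower. Compared with the Ctnna2-Abi3bp nuclei, 4 of 16 were higher and 4 lower, with a median of -0.23. There the shares over all genes were 1.96% higher and 1.57% lower. With nuclei matched on UMI total the difference from other nuclei was 3.16 in place of 2.11 for Hapln1 and 2.56 in place of 1.94 for Has2. Aspn, the gene of the leucine-rich proteoglycan asporin, was lower in both comparisons, at 37.8 to 48.1 CPM in members and 588 to 731 in the Ctnna2-Abi3bp nuclei. Eln was at 1511, 1692 and 882 CPM in members and at 8174, 6169 and 4731 in other nuclei, which include smooth muscle, and its difference from the Ctnna2-Abi3bp nuclei, -1.03 ± 0.26, did not reach 2-fold in every pool. Of 19 elastic fibre genes 2 were higher (Fbln1 and Loxl2) and 4 lower (Eln, Fbln5, Emilin2 and Lox) than in other nuclei, with a median of 0.40, where 3.38% of all genes were higher and 6.41% lower.

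Among collagens, Col9a1 and Col9a3, chains of the cartilage collagen IX, were at 80.3 to 109.7 and 45.9 to 124 CPM in members and at 6.15 to 12.7 and 3.68 to 7.15 in other nuclei. Col2a1, the cartilage fibril with which collagen IX associates, had 0 UMIs in members. Col1a1 and Col3a1 differed from other nuclei by 0.48 ± 0.18 and 0.90 ± 0.27 without passing 2-fold in every pool. Col24a1 was at 12.3, 7.09 and 37.4 CPM in members, below both the other nuclei at 194 to 346 and the Ctnna2-Abi3bp nuclei at 172 to 224. Of 13 ADAMTS proteases tested other than Adamts19, Adamts20 was higher than in other nuclei (137, 196 and 146 CPM against 17.3, 17.6 and 19.7), and Adamts1, Adamts9 and Adamts17 were lower. Of all genes 3.38% were higher and 6.41% lower. Of 12 valve disease genes tested outside the rule, Eln was lower and 0 were higher, near the shares over all genes (6.41% and 3.38%).

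Among transcription factors of valve mesenchyme, of 27 tested, Sox9, Tbx20, Msx1, Prrx1, Tbx3 and Sox5 were higher than in other nuclei, and Nr2f2 and Foxc1 lower. Of all genes 3.38% were higher and 6.41% lower, so that the number lower is near the share over all genes. Msx1 was at 116, 92.2 and 79.8 CPM in members against 10.2, 12.4 and 7.20. Against the Ctnna2-Abi3bp nuclei, of 28 tested, Tbx3 was higher, at 62.9, 82.7 and 84.9 CPM against 17.9, 29.2 and 14.9, while Nfatc1 and Tcf21 were lower. In that comparison 1.96% of all genes were higher and 1.57% lower. Nfatc1, a factor of valve endocardium, was at 76.4, 78.0 and 78.1 CPM in members and 204, 181 and 289 in that set. Rarb, a retinoic acid receptor outside the list, was at 1250, 1536 and 1485 CPM in members and 222, 213 and 189 in that set. Sox2, Pax6 and the other neural genes of the 7 in a list did not reach 10 CPM, with Sox2 at 0 UMIs, although Rmst RNA is known as a partner of SOX2 in neural cells. Of 9 Notch genes tested Notch2 was higher and Jag1 and Hey2 lower than in other nuclei, and of 8 hedgehog genes tested Gli3 was higher. Again, 3.38% of all genes were higher and 6.41% lower.

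The ranking against other nuclei was led by Grm7 and Sntg1. Grm7, a metabotropic glutamate receptor, was at 504, 683 and 627 CPM in members and 33.8, 32.5 and 38.9 in other nuclei. Sntg1, a syntrophin, was at 604, 690 and 725 CPM against 51.2, 39.9 and 55.4, and Grin3a, an NMDA receptor subunit, at 269, 267 and 403 against 24.7, 22.6 and 24.5. None of these pools overlapped, and Sntg1 differed by 4.56 in place of 3.66 when nuclei were matched on UMI total. Negr1 and Opcml, adhesion proteins of 1 family, were at 848 to 1043 and 588 to 1075 CPM against 84.1 to 88.3 and 73.1 to 79.3. Anks1b, Pde11a, Cadps, Dlgap1, Gria3, Gfra1 and Cttnbp2 were higher by 2.71 to 3.46 on the log2 scale. The fixed list of adhesion and synaptic genes did not share a direction, since 6 of its 35 tested members outside the rule were higher and 11 lower, with a median of -0.73. Over all genes the shares were 3.38% higher and 6.41% lower. The other genes with the widest differences were Tmem132c, Galnt14, Megf11, Fam78b, Sall3, Scara3, Garnl3 and LOC118567348, from 2.79 to 3.45.

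Against the Ctnna2-Abi3bp nuclei, LOC115487471 ranked first by its least changed pool, at 504, 347 and 710 CPM in members and 26.1, 8.77 and 44.8 in that set. Pde11a, a phosphodiesterase, ranked next, at 111, 132 and 180 CPM against 0, 5.84 and 0, and no UMI was read in the compared set in pools 1 and 3. Nav3 (1521, 1137 and 2094 CPM against 91.3, 52.6 and 353), Lypd6, Egfem1, Pak5, Pkp2, Enpp2, Egln3 and Trf were also higher. On the lower side Meox2 was at 13.6, 7.09 and 1.70 CPM in members and 142, 155 and 79.6 in that set, beside Vgll3, Nrk, Itgbl1, Gabrb2, Svep1 and Ebf2. Of 13 imprinted growth genes Igf2, Dlk1, Meg3 and Plagl1 were lower than in that set and 0 were higher, with a median of -1.02. Of all genes 1.57% were lower and 1.96% higher in this comparison. With 8 UMIs and 0.4% as limits, the difference was 6.29 in place of 4.19 for LOC115487471 and 5.73 in place of 3.62 for Nav3, while it was 2.39 in place of 3.07 for Lef1. With 1 CPM added in place of 5 the difference in Notum was 3.62 in place of 1.72.

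**Figure D2:**
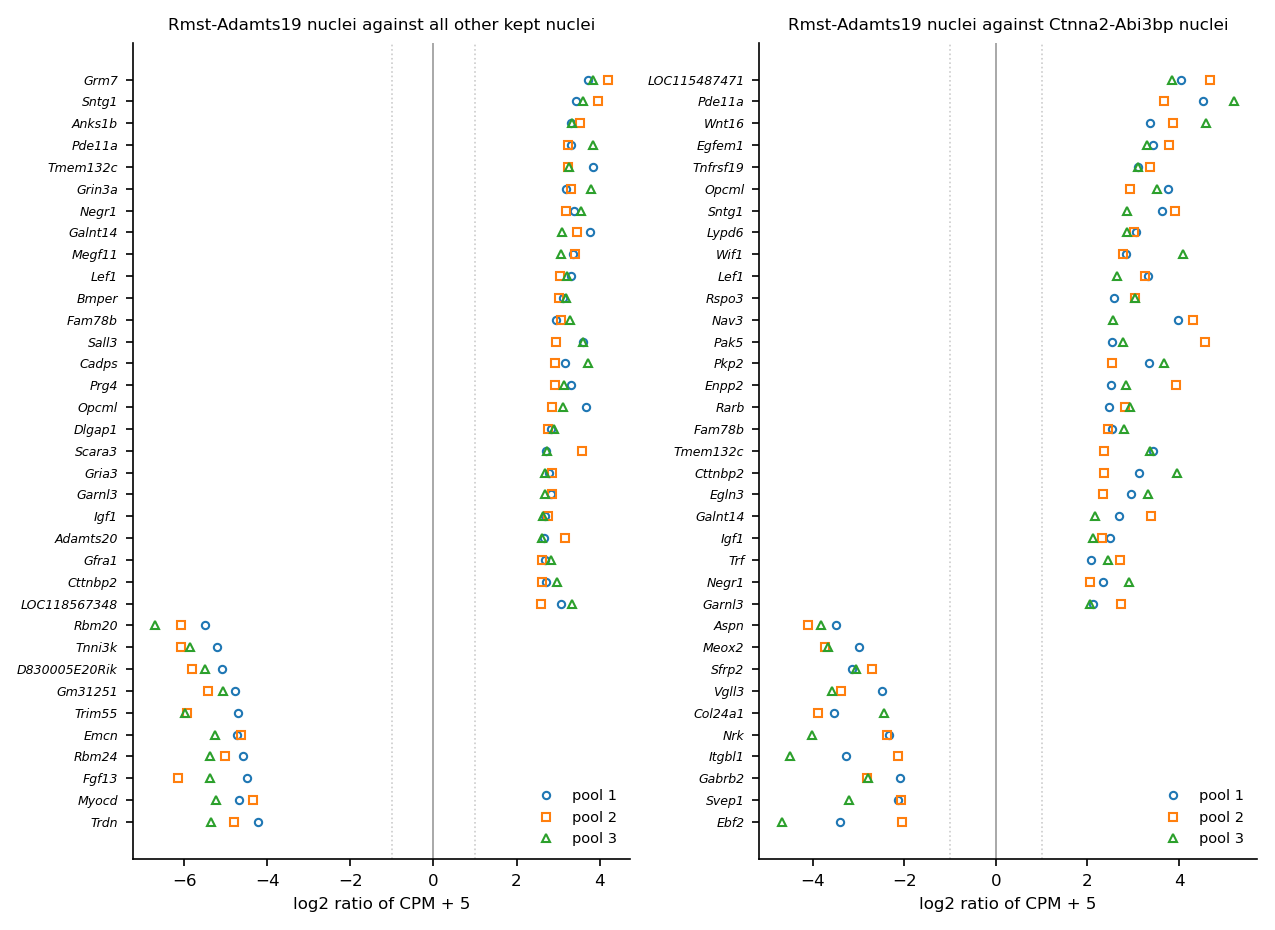
Log2 ratio of CPM + 5 between members and all other kept nuclei (left) or the Ctnna2-Abi3bp nuclei (right), with 1 symbol per pool, for the genes with the widest change in their least changed pool. Grm7 leads on the left at 3.71 to 4.20 and LOC115487471 on the right at 3.84 to 4.68, and no gene shown has a pool between the dotted lines at 1 and -1.

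Cell cycle RNA was read in few members. After each nucleus was thinned to 1000 UMIs, at least 2 UMIs of 12 cell cycle genes were present in 3.78% (7 of 185), 4.08% (4 of 98) and 2.09% (4 of 191) of members, a mean of 3.32% ± 1.07 (SD, n = 3 pools). The same measure gave 8.87% ± 1.21 in the other kept nuclei, 13.1% ± 3.48 in the fibroblast nuclei, 5.25% ± 2.22 in the Ctnna2-Abi3bp nuclei and 2.49% ± 1.04 in nuclei rich in cardiac RNA. Every pool of members lay below every pool of the other kept nuclei, which range from 7.48% to 9.60%. Without thinning the shares were 13.7% ± 5.50 in members and 28.7% ± 6.32 in other nuclei, and 12.7% ± 3.43 in the Ctnna2-Abi3bp nuclei and 16.5% ± 5.21 in cardiac-rich nuclei, so that the order of members against each of these last 2 sets turned with thinning. No test was made of this difference. Mki67, a marker of proliferation, was at 11.1, 18.9 and 3.40 CPM in members and 54.4, 61.5 and 39.7 in other nuclei, and of 12 cell cycle genes Mki67 was lower in every pool by 2-fold and 0 were higher, which is near the shares over all genes (6.41% and 3.38%).

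EGFP RNA, which the Scx allele encodes, was at 28.3, 23.6 and 13.6 CPM in members, from 23, 10 and 8 UMIs. It was at 7.70, 9.12 and 5.78 CPM in other kept nuclei and at 26.1, 35.1 and 24.9 in the Ctnna2-Abi3bp nuclei, and the difference of 1.07 ± 0.31 from other nuclei did not reach 2-fold in every pool. After thinning, a UMI was present in 1.60% ± 1.45 of members (8 of 474) and in 0.213% ± 0.194 of nuclei rich in cardiac RNA, a cell type not known for scleraxis, at median depths before thinning of 3557.5 and 5685 UMIs. The share was 3.81% ± 2.45 in the Ctnna2-Abi3bp nuclei (14 of 351), 1.35% ± 0.30 in nuclei rich in endothelial RNA and 0 of 774 in the fibroblast nuclei, at median depths of 3085, 5103.5 and 3522 UMIs. At 1000 UMIs a nucleus, a count of 0 in the fibroblast nuclei allows a share of up to 0.811%, 1.69% and 1.33% in pools 1 to 3, taken as 3 counts of the total. Without thinning the shares were 7.71% ± 3.54 in members, 8.57% ± 2.06 in the Ctnna2-Abi3bp nuclei, 7.55% ± 1.24 in endothelial-rich, 1.98% ± 0.50 in cardiac-rich and 1.10% ± 0.96 in fibroblast nuclei, of which 9 had a UMI. The share in members was 3.24% in pool 1 (Wilson 95% interval 1.49 to 6.89), where cardiac-rich nuclei had 0.38% (0.148 to 0.973). It was 1.02% in pool 2 (0.18 to 5.56) and 0.524% in pool 3 (0.0925 to 2.91), and in both the interval overlapped that of the cardiac-rich nuclei, so that a difference was not detectable there.

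Members with an EGFP UMI were compared with members of the same pool without one and with the nearest UMI total, 19, 9 and 7 pairs. The edgeR quasi-likelihood test, with pool as a block, covered 858 genes, and 0 (0.0%) passed an adjusted p of 0.05, while 34 had an unadjusted p under 0.05. DESeq2 also called 0, with 21 at an unadjusted p under 0.05. The gene with the smallest p was Ccn2, a matricellular gene that responds to mechanical load, at 232, 1307 and 323 CPM with EGFP and 105, 58.1 and 80.3 without. Its log2 difference was 2.34 (SE 0.55) with an edgeR adjusted p of 0.576, higher in 3 of 3 pools. Of the 35 members with an EGFP UMI 18 lay in sub-cluster 2, where Ccn2 was at 346 CPM against 33.4 in sub-cluster 1, and the part of this was not tested.

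Both sexes contributed to the members. By Xist and 4 Y-linked genes, 408 members could be called and 214 were female. In pool 1 these were 59 of 163 (36.2%, Wilson 95% interval 29.2 to 43.8), in the next 45 of 77 (58.4%, interval 47.3 to 68.8) and in the last 110 of 168 (65.5%, interval 58.0 to 72.2). In other nuclei the female share was 43.7%, 49.5% and 52.3%. The order of the pools was the same, while the members' shares were spread more widely.

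Few genes separated female from male members, and all calls were lost under some of the other settings. Of 5357 genes tested by edgeR with pool as a block, 4 were higher in female nuclei (0.0747%) and 11 lower (0.205%), 15 in all (0.28%), at an adjusted p under 0.05. Of 16591 genes tested between the sexes in other nuclei, 29 passed (0.175%), with 6 up in female nuclei (0.0362%) and 23 down (0.139%). Among those up were the X-linked genes Kdm6a (0.72, edgeR adjusted p = 0.000178), Kdm5c and Eif2s3x (0.51 and 0.73, edgeR adjusted p = 0.00901 for both). None of these X-linked genes was among the 15 called in members. In members, the genes lower in female nuclei were Smc2, Kif11, Knl1, Top2a, Ctnna2, Sntg1, Mgp, Dync1i1, Frmpd4, Etl4 and A230057D06Rik. Of the 12 listed cell cycle genes only 4 had enough UMIs to be tested, and Kif11, Knl1 and Top2a passed while Smc4 did not (-0.99, edgeR adjusted p = 0.276). Kif11 rests on 4 female and 43 male UMIs, and 3 male nuclei held 28 of them. The genes higher in female members were Tnc, Alcam, Pkhd1l1 and Rbfox1, and for Pkhd1l1 3 nuclei held 75 of 77 female UMIs. Without the 9 members with mesothelial UMIs the count was 3 (Tnc, Dync1i1 and Ctnna2), with DESeq2 it was 0, without the block 0, without pool 2 it was 4 with neither Dync1i1 nor Ctnna2 among them, and at 8 UMIs and 0.4% it was 2. Many lost calls kept their log2 difference. Without the members with mesothelial UMIs it was -2.19 for Smc2 (-2.20 with them), -2.59 for Knl1 (-2.61) and -1.74 for Top2a (-1.76), and with DESeq2 it was -1.94 for Dync1i1 (-1.97 in edgeR).

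Dync1i1, an intermediate chain of cytoplasmic dynein, was at 27.5, 44.7 and 53.5 CPM in female members and 69.9, 262 and 198 in male members. No female pool reached a male pool. Its log2 difference was -1.97 (SE 0.31, edgeR adjusted p = 0.000253), and -2.27 without the nuclei with mesothelial UMIs. Ctnna2, an alpha-catenin of neural tissue, was at 345, 199 and 193 CPM in female and 546, 466 and 434 in male members, a difference of -0.98 (SE 0.18, edgeR adjusted p = 0.00397). Tnc, which encodes the matrix protein tenascin C, was at 569, 164 and 387 CPM in female and 65.5, 177 and 5.36 in male members, higher in 2 of 3 pools, so that pool 2 goes against its difference of 2.41 (SE 0.35, edgeR adjusted p = 0.000108). Sub-cluster 2 of the members held most Tnc RNA (671 CPM against 14.3 in sub-cluster 1) and 18 female and 25 male members in pool 1, 14 and 12 in pool 2 and 42 and 12 in pool 3. Dync1i1 was at 170 CPM in sub-cluster 1, with 23 female and 41 male, 8 and 9, and 42 and 34 members in these pools, and at 11.9 in sub-cluster 2. The part of this in the sex differences was not tested. A single female nucleus held 139 of the 308 Tnc UMIs of female members, and 3 nuclei held 235. For Dync1i1 the largest male nucleus held 17 of 109 UMIs. Nuclei of 1 pool are not independent samples, and the test rests on 3 pools. The sex difference itself was compared between members and other nuclei by an interaction term in edgeR, where 5 of 15597 genes passed (0.0321%), 3 higher (0.0192%) and 2 lower (0.0128%), Dync1i1, Ctnna2 and Tnc among them. Tnc did not pass with DESeq2 (adjusted p = 0.752), and Ctnna2 did not pass in edgeR without pool 2 (adjusted p = 0.220).

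**Figure D3:**
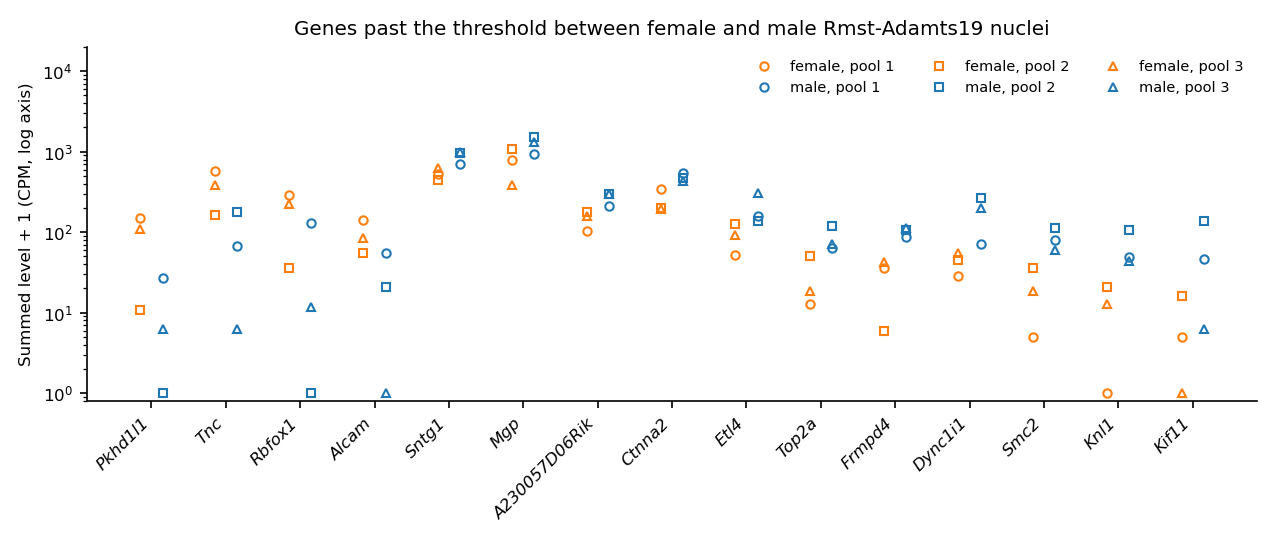
Summed level plus 1 (CPM, log axis) of the 15 genes past the threshold in female (orange) and male (blue) members, with 1 symbol per pool. Dync1i1 lies at 27.5 to 53.5 CPM in female and 69.9 to 262 in male members, while Tnc in pool 2 is at 164 in female and 177 in male members.

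Members divided into 5 sub-clusters at a Leiden resolution of 0.5 and 9 at a resolution of 1. The clustering left out the rule genes, the sex genes, 12 cell cycle genes, EGFP and the mitochondrial genes. Sub-clusters are described by number, since a sub-cluster's genes come from the same counts that made it and carry no test. Sub-cluster 1 held 175 members, sub-cluster 2 held 145, sub-cluster 3 held 66, sub-cluster 4 held 63 and sub-cluster 5 held 25. Each occurred in all 3 pools.

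Sub-cluster 1 had Adamts19 at 6059, 3775 and 5265 CPM, above the same pool of every other sub-cluster. Rmst was at 1390, 1445 and 1664 CPM, higher than elsewhere except in pool 3, where sub-cluster 3 had 1818. Rspo3 (1131, 695 and 1011 CPM) and Lef1 (624, 728 and 522) were also high there. Its leading genes were Gria4, Cntnap4, Phf24, Plpp4, Rgs7bp and Gm35533, each at 113 CPM or less and in at most 24.0% of its nuclei. The Wnt feedback list summed to 1889 CPM in it and to 1386 in the other members.

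Sub-cluster 2 was led by Tnc, Lin7a, Errfi1, Kctd16, Lrrc7 and Ccn1, of which Tnc was read in 19.3% of its nuclei, Lin7a in 6.90%, Kctd16 in 7.59% and Lrrc7 in 8.28%. Ccn2 was at 254, 603 and 274 CPM and Ccn1, its relative and like it a target of YAP signalling, at 233, 155 and 181, both above the same pool of every other sub-cluster. Thbs1, which encodes thrombospondin, was at 563, 546 and 674 CPM there and at 65.2 to 190 in sub-cluster 1. Wif1 was nearly missing, with 4 UMIs, and Rspo3 was at 223, 261 and 394 CPM. EGFP was at 65.9, 48.9 and 27.4 CPM in it and at 17.0, 22.4 and 4.08 in sub-cluster 1, from 24 and 8 UMIs. The Ctnna2-Abi3bp limits were met as well by 38.8%, 24.2% and 27.0% of its nuclei in pools 1 to 3, against 18.3%, 36.4% and 18.3% in sub-cluster 1, so that pool 2 had the opposite order.

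Sub-cluster 3 was led by Apoe (2583, 2533 and 1344 CPM), H2-Ab1, H2-Aa, C4b, Lum and Serpina3n. Dcn was at 6607, 7438 and 5561 CPM, Col1a1 at 3094, 3708 and 2451, and Lum at 1799, 1774 and 1080, each above the same pool of every other sub-cluster, while Vcan at 2870, 3291 and 2556 was not. Wif1 (560, 327 and 343 CPM) and Igf1 (2765, 3521 and 3110) were highest here too. The nuclei had a median of 3.46% mitochondrial UMIs, where the other sub-clusters had 0.384% to 0.590%, and also more Myh6 and Hba-a1 RNA (203 and 95.5 CPM, against at most 118 and 57.7). Pericyte markers summed to 672 CPM against 393 in the other members, with Rgs5, Kcnj8 and Abcc9 at least 2-fold higher, and fibroblast markers to 2286 against 1416, with Dpt at least 2-fold higher. The part of these in the result was not tested. The sub-cluster was 14.1% (Wilson 95% interval 9.77 to 19.8) of the members of pool 1, 28.6% (20.6 to 38.2) of pool 2 and 6.28% (3.63 to 10.7) of pool 3, and members of these pools had median mitochondrial shares of 0.799%, 1.05% and 0.450%.

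Sub-cluster 4 was led by Gpm6a, Pkhd1l1, Fras1, Rbfox1, C3 and Sema3d, but few of its nuclei carried them. Gpm6a was read in 14.3% of its nuclei, at 3347 and 4137 CPM in pools 1 and 3 and 30.8 in pool 2, Wt1 in 11.1% and Upk3b in 9.52%, and 8 of the 9 members with at least 3 mesothelial UMIs lay in it. Over all its nuclei, these 8 included, Lef1 was at 234, 92.3 and 133 CPM, the ligand Wnt16 at 24.2, 61.5 and 30.8, and the Wnt feedback list at 792 CPM against 1683 in the other members. Not every gene of that list was low, since Nkd1 in pool 1 was at 113 CPM and Apcdd1 in pool 3 at 205, within or above the range of the other sub-clusters. Vcan was at 839, 1108 and 955 CPM, below every other sub-cluster in every pool, while Tbx20 stood at 1911, 2584 and 2628, within their range. Its rule genes, which the clustering did not use, made up a median of 0.568% of UMIs, the lowest of the 5.

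Sub-cluster 5 was led by cell cycle genes. At least 2 cell cycle UMIs before thinning were present in 16 of its 25 nuclei, and in 14, 14, 10 and 8 nuclei of sub-clusters 1 to 4. All 12 cell cycle genes were at least 2-fold above the other members, with Top2a at 483, 858 and 626 CPM and Mki67 at 37.1, 200.2 and 78.2, and Neil3, Knl1, Kif23, Ect2, Kif11 and Pif1 led it. Its 25 nuclei had Lef1 at 353, 572 and 313 CPM and Wnt16 at 260, 286 and 274, while Rspo3 was lower than in sub-cluster 1, at 74.3, 114 and 352. Of those called, 7 were female and 16 male, with 1 and 10 in pool 1, and the part of this in the sex differences of Kif11, Knl1 and Top2a was not tested. It made up 5.95%, 6.12% and 4.19% of the members of pools 1 to 3.

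**Figure D4:**
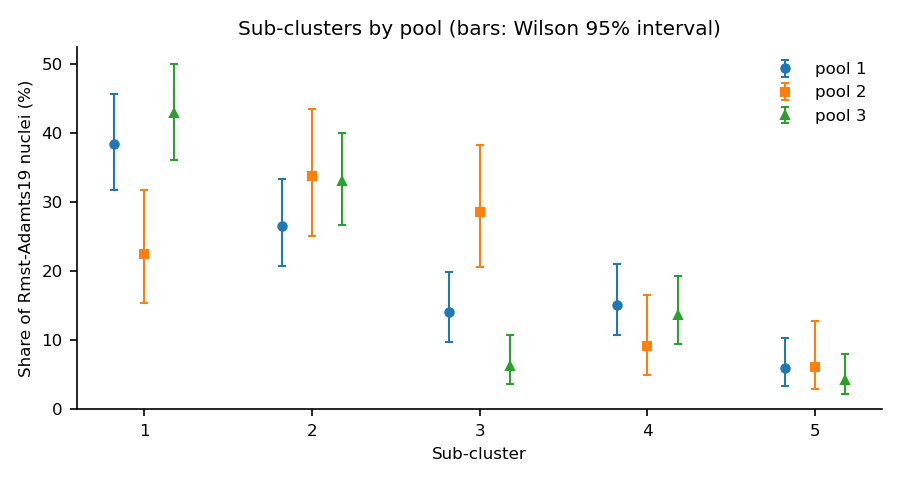
Share of each pool's members in sub-clusters 1 to 5 (%), with Wilson 95% intervals for counting error. Sub-cluster 3 ranges from 6.28% in pool 3 to 28.6% in pool 2 and the pool 2 interval meets neither of the others, while sub-cluster 5 stays between 4.19% and 6.12%.

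**Figure D5:**
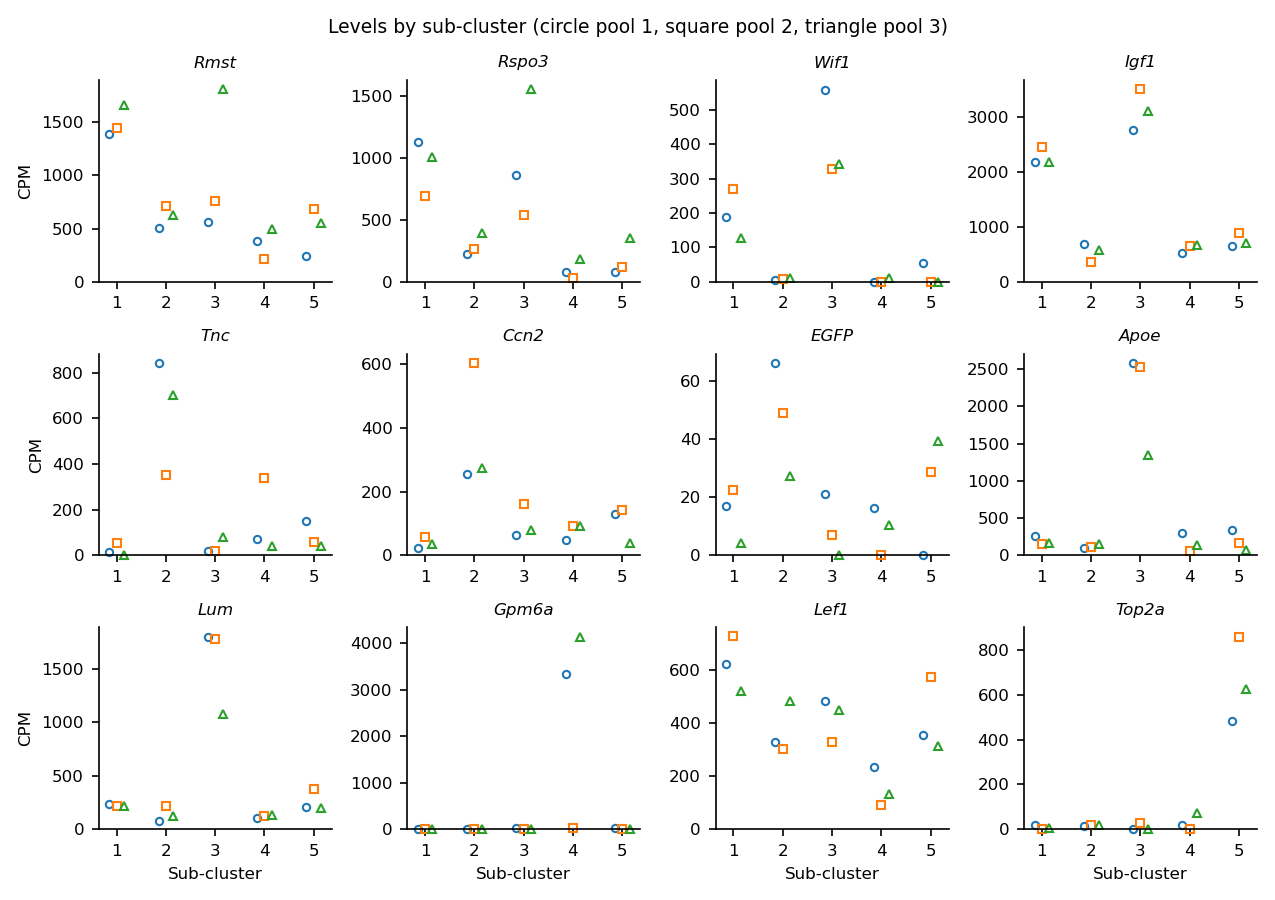
Level (CPM) of 12 genes in sub-clusters 1 to 5, with 1 symbol per pool. Igf1 and Wif1 are high in sub-clusters 1 and 3, Tnc and Ccn2 in sub-cluster 2, Apoe and Lum in sub-cluster 3, Gpm6a in sub-cluster 4 and Top2a in sub-cluster 5.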

How the data were processed

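Raw UMI counts per gene and nucleus were deposited by the authors as 3 matrices whose file headers name Cell Ranger 7.1.0 (7.0.1 and 7.1.0 on GRCm39 per the submitters' processing notes). The annotation is not given in the sources used here. Counts were summed per pool and set of nuclei, divided by the set's total (CPM), and compared as log2(CPM + 5) with no test. The limits for sets rich in cardiac (2% of UMIs), endothelial (3 UMIs) or smooth muscle RNA (4 UMIs) and the fibroblast genes were set after the data were seen. Named genes were those of fixed lists, the rule genes, and up to 25 higher and 10 lower genes at 50 CPM ranked by their least changed pool, the 6 top genes of each sub-cluster and the genes past a test's threshold that changed the same way in every pool. Tnc and Ccn2 in the tests, and genes singled out by their nuclei or sub-clusters, were named after their values were seen. Members and lists were chosen with earlier results of these data known.

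A nucleus with 2 or more Xist UMIs and none of Uty, Ddx3y, Kdm5d and Eif2s3y was called female, and one with 1 or more of these and none of Xist male. Xist, Tsix and these 4 genes were not tested. Sums were tested with edgeR 4.0.16 (R 4.3.3; TMM, low-count filter, quasi-likelihood, Benjamini-Hochberg), with pool as a block because both sums of a pair come from 1 library, and with DESeq2 1.42.0 as an alternative. Doublets were kept, and scrublet scores served an alternative. Sub-clusters came from scanpy 1.11.5 and leidenalg 0.10.2 on 2000 variable genes, 20 principal components and 15 neighbours. Wilson intervals, and the limits that depth sets, cover counting error only.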

Additional observations from a re-analysis of the deposited data

Results flagged for a closer look

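The difference between female and male nuclei was not the same in members as in all other kept nuclei for 5 of 15597 genes (0.0321%), by an interaction term in edgeR with pool as a block and an adjusted p under 0.05. The female minus male log2 difference in members exceeded that in other nuclei by 2.79 for Pkhd1l1, 2.18 for Rbfox1 and 2.45 for Tnc. Rbfox1 rests on few nuclei, since 3 female nuclei held 131 of 155 UMIs and 1 male nucleus 53 of 61, and in other nuclei it differed by -0.46 (edgeR adjusted p = 0.0481). The difference in members was below that in other nuclei by a difference of -2.20 for Dync1i1 and -0.96 for Ctnna2. The edgeR adjusted p-values were 0.00204 for Pkhd1l1 and Dync1i1, 0.0043 for Rbfox1, 0.0081 for Tnc and 0.0344 for Ctnna2. Without the 9 members with mesothelial UMIs, Dync1i1 (-2.54), Tnc (2.44) and Ctnna2 (-0.97) stayed past the threshold, and Pkhd1l1 (1.39, edgeR adjusted p = 0.943) and Rbfox1 (2.05, 0.5997 by the same test) did not, so that Rbfox1 lost its call with little change in its difference. Without the block 0 genes passed, with 626 at an unadjusted p under 0.05. With DESeq2 Tnc did not pass (adjusted p = 0.752), and without pool 2 Ctnna2 did not pass in edgeR (adjusted p = 0.220).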

How the results depend on the processing

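Leaving out 1 pool gave 587 to 660 genes against the Ctnna2-Abi3bp nuclei where 380 were found with all 3, since fewer pools have to be past 2-fold. Against other nuclei the count stayed within 932 to 1315 under every alternative run, around 1081. TMM scaling moved the median over all genes by -0.11 in that comparison. The cycling share was 13.7% without thinning. The share of members and the EGFP level stayed within the spread between pools under each alternative run, which were 2000 UMIs, 10% mitochondrial UMIs, 8 UMIs with 0.4% (the stricter limits), no high doublet scores, no mesothelial-marked members and leaving out 1 pool. Sub-clusters numbered 9 at resolution 1 instead of 5.

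The 15 genes between the sexes became 0 with DESeq2 (42 at an unadjusted p under 0.05), 0 without the replicate block (161), 0 when nuclei of 2000 UMIs were called by Xist alone (290), 3 at 2000 UMIs, 1 at 10% mitochondrial, 2 at the stricter limits, 3 without the mesothelial-marked members (an alternative chosen after seeing the data), and 4 to 18 without 1 pool. Rbfox1 reversed to -0.69 at the stricter limits. The 5 interaction genes became 15 with DESeq2 (Tnc not among them), 41 without a filter on low counts, 0 without the replicate block, 3 without the mesothelial-marked members and 5 to 54 without 1 pool (Ctnna2 not among the 5 without pool 2). The EGFP comparison gave 2 genes without a filter and 0 to 3 without 1 pool. The cause of these changes was not tested. With pairs of 2 or more EGFP UMIs 71 genes could be tested by edgeR, with 0 called and 0 at an unadjusted p under 0.05. Of single genes against other nuclei, Hapln1 differed by 3.16 in place of 2.11 and Sntg1 by 4.56 in place of 3.66 when nuclei were matched on UMI total.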

Other observations

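Slit2, a secreted guidance protein, was at 1271, 1181 and 1524 CPM in members, 298 to 326 in other nuclei and 414 to 577 in the Ctnna2-Abi3bp nuclei, higher in both comparisons. Slit3 was at 201, 116 and 155 CPM, below other nuclei at 569 to 971 and the Ctnna2-Abi3bp nuclei at 333 to 627. Robo2, a receptor for SLIT proteins, was at 929, 971 and 917 CPM in members, above other nuclei at 229 to 273 and below the Ctnna2-Abi3bp nuclei at 2001 to 2349. Robo1, a second such receptor, was at 547, 551 and 690 CPM in members, and was lower than in the Ctnna2-Abi3bp nuclei, at 1156 to 1677.

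Among 19 matricellular genes Postn, Tgfbi, Thbs1 and Matn4 were higher than in other nuclei and Spon1 and Ccn4 lower, with a median of 0.21, where 3.38% of all genes were higher and 6.41% lower. Against the Ctnna2-Abi3bp nuclei 0 of 21 were higher, and Thbs4, Ccn4 and Ccn5 were lower, with 0 Thbs4 UMIs in members and 37.5 to 44.8 CPM in that set. There 1.96% of all genes were higher and 1.57% lower, so that 0 of 21 higher is near the share over all genes. These comparisons are descriptions with no test.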
